A study of Mus musculus with 4 samples.

Results

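Gcg, Sst, Ppy and Pyy encode the peptide hormones that pancreatic islets make beside insulin, and these 4 of the 32285 genes measured were read by symbol in single-cell RNA sequencing of mouse islets. Each symbol had 1 row in the count tables, so every member was found. The Cre-positive islets carried floxed alleles of Tet2 and Tet3, written Tet2(flox/flox)Tet3(flox/flox), together with Pdx1 cre+. The Cre-negative islets carried the same floxed alleles with Pdx1 cre-, so floxed Tet2 and Tet3 were shared by both. Pdx1-Cre is driven by a promoter of the embryonic pancreatic epithelium, so it is not restricted to one islet hormone cell. The other pair was offspring of mothers with intrauterine hyperglycemia (IHG offspring) and offspring of control mothers (control offspring), with no engineered allele named in the labels. All mice were males of 8 weeks. The study asked why IHG offspring handle glucose and release insulin poorly. Each group had 1 library, and the number of mice behind a library was not stated in the labels.

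With 1 library in a group there is no replicate and no test between groups. The 95% intervals printed cover counting error alone, and a difference between libraries here is a difference between those libraries. Transcripts were counted by unique molecular identifiers (UMIs), tags that mark each captured 3′ end, so a transcript counts once whatever its length. After filtering, 9048 Cre-positive, 5599 Cre-negative, 11244 IHG offspring and 14861 control offspring cells were kept, with median depths of 5996, 7698, 7103 and 5370 UMIs in that order. Between 58 and 246 cell barcodes were shared by a pair of libraries, 0.903% to 2.04% of the smaller one. Tet2 in beta-like cells stood at 33.8 CPM (counts per 1000000 UMIs of the class) in Cre-positive and 46.7 CPM in Cre-negative islets, and Tet3 at 26.4 and 34.6 CPM in the same order. Such 3′ tags check a deletion only where they lie in the deleted part, and the labels do not say whether they do.

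Glucagon, from Gcg in alpha cells, raises blood glucose by acting on the liver. Somatostatin, from Sst in delta cells, restrains the release of both glucagon and insulin from neighbouring cells through somatostatin receptors. Pancreatic polypeptide, from Ppy, marks the rare PP cell, and peptide YY, from Pyy, is a relative of Ppy and of neuropeptide Y that islet cells of several types make in mice. The Irx1 and Irx2 factors mark alpha cells, and Hhex marks delta cells.

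All of the 4 genes lie on the minus strand of GRCm38 (GENCODE vM21), and none overlaps another annotated gene. Gcg spans chr2:62474530-62483650 and Sst chr16:23889573-23890958. Ppy spans chr11:102099930-102101319 and Pyy chr11:102106676-102107832, so these relatives are neighbours, 5356 bases apart with 0 genes wholly between them. Their promoters are printed because Ppy and Pyy were found in the same cells, with those of Gcg and Sst beside them for comparison. Each run is the 250 bases before a RefSeq transcription start (GRCm38.p6), 5′ to 3′ on the gene's own strand. Capitals mark the motifs searched on both strands, TATAA (the TATA box core), TGACGTCA (the cyclic AMP response element), TAAT (a homeodomain core) and TGCTGAC (an element of basic leucine zipper factors), and a motif on the other strand is written as its reverse complement.
Gcg: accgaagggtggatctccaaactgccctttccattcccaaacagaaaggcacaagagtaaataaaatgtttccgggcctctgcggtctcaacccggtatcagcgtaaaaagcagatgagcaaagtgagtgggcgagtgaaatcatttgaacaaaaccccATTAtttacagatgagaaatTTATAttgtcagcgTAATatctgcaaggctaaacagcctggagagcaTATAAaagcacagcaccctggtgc
Sst: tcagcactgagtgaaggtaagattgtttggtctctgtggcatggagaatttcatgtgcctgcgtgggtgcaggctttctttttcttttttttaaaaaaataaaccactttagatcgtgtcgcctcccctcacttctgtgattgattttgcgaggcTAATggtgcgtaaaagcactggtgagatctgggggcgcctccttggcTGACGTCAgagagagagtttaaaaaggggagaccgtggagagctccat
Ppy: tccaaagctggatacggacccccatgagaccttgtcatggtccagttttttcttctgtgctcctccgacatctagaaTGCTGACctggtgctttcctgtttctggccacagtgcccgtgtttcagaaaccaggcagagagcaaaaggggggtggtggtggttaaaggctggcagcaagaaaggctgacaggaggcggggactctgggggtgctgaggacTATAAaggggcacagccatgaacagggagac
Pyy: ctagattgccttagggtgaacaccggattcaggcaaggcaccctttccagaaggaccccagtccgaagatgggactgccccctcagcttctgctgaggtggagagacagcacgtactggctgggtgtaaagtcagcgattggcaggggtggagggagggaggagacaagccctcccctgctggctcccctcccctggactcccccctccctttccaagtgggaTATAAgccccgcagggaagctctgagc
The windows lie at chr2:62483654-62483903 for Gcg, chr16:23890845-23891094 for Sst, chr11:102101320-102101569 for Ppy and chr11:102107833-102108082 for Pyy. The Sst start of RefSeq lies 114 bases inside the longer GENCODE gene, and the Pyy window belongs to 1 of its 2 RefSeq starts, the one nearest to the GENCODE start. Gcg, Ppy and Pyy held TATAA with its first base 24, 31 and 27 bases before the start in that order, and Gcg held a further copy on the other strand, while Sst held none. Sst alone held TGACGTCA, starting 48 bases before the start, where 1.55% of 32851 promoter windows of the same length hold it. TAAT stood in the Gcg window on each strand and once in the Sst window, and 54.9% of all windows hold it. TGCTGAC stood once in the Ppy window, against 3.81% of all windows, and TATAA is in 22.8% of them. The Ppy and Pyy windows shared TATAA and no other motif of this search.

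Some groups of cells stood apart, and they touch the hormone values below. Cells were clustered without the members, and clusters were named from markers that hold none of them, which gave alpha-like, delta-like, beta-like, endothelial-like, macrophage-like and mesenchyme-like cells. Alpha-like cells numbered 1560 Cre-positive, 1431 Cre-negative, 2133 IHG offspring and 995 control offspring cells, and delta-like cells 798, 533, 1333 and 1105 in the same order. Of the 9 alpha markers, 8 or 9 reached 20 CPM in the alpha-like cells of every library, and 6 or 7 of the 8 delta markers did in delta-like cells. Different clusters held most of a class in different libraries. Cluster 3 held 87.4% of Cre-positive and 87.3% of control offspring alpha-like cells, cluster 13 held 58.6% of the Cre-negative ones, and cluster 12 held 48.8% of those of IHG offspring. Cluster 18, alpha-like by its markers and rich in Pyy, added 473 Cre-negative and 181 IHG offspring cells, while its counterpart, cluster 17, with 417 Cre-positive, 119 IHG offspring and 176 control offspring cells, stayed unnamed. Delta-like cells lay in cluster 5 for 97.9% of Cre-positive and 93.2% of control offspring cells, and in cluster 8 for 96.6% of Cre-negative and 61.6% of IHG offspring cells. Cluster 11, unnamed because its alpha score of 2.30 was close to its delta score of 1.77, held 794 Cre-positive, 22 IHG offspring and 386 control offspring cells, and its median depth of 15363 UMIs in Cre-positive islets was above that library's median of 5996. Cluster 23, endothelial-like by its markers, held 235 IHG offspring cells in which insulin RNA took a median of 19.1% of UMIs.

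Taken over all UMIs of a library, Gcg was the largest of the members in 3 of the 4 libraries. Gcg took 7.44% of all UMIs in Cre-positive and 1.47% in Cre-negative islets, and 5.66% in IHG offspring and 1.94% in control offspring islets. Sst took 1.99% in Cre-positive and 1.85% in Cre-negative islets, and 2.26% in IHG offspring and 0.960% in control offspring islets. Ppy was the smallest, at 0.735% in Cre-positive and 0.200% in Cre-negative islets, and 0.375% in IHG offspring and 0.164% in control offspring islets. Pyy took 1.17% in Cre-positive and 1.45% in Cre-negative islets, and 0.991% in IHG offspring and 0.303% in control offspring islets. The Cre-negative library thus differed from the rest in that Sst, not Gcg, led and Pyy nearly equalled Gcg. In such a sum, fewer cells of a type and less RNA per cell cannot be told apart. The cells of a type did differ in number, with beta-like cells at 2830 Cre-positive, 3253 Cre-negative, 6059 IHG offspring and 10789 control offspring cells.

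Within single cells Gcg was split between a large body of cells with a trace and a smaller body with a large share. The median kept cell gave Gcg 0.176% of its UMIs in Cre-positive, 0.0219% in Cre-negative, 0.0569% in IHG offspring and 0.0274% in control offspring islets. The highest cell gave it 52.6%, 51.8%, 54.6% and 52.1% of its UMIs in the same order. A cell was called rich in Gcg, Sst or Ppy at 5% of its UMIs and rich in Pyy at 1%, and the Gcg-rich cells held 95.4% to 98.4% of all Gcg UMIs in a library. Gcg-rich cells made up 25.8% (24.9 to 26.7) of Cre-positive and 8.86% (8.13 to 9.63) of Cre-negative cells, and 18.7% of IHG offspring and 9.25% (8.79 to 9.72) of control offspring cells. Sst-rich cells made up 12.9% of Cre-positive and 10.9% of Cre-negative cells, and 12.3% of IHG offspring and 7.77% of control offspring cells. The deep, unnamed cluster 11, with 0 Cre-negative cells, weighs on these shares. It held 712 of 2336 Gcg-rich and 372 of 1167 Sst-rich Cre-positive cells. In control offspring it held 349 of 1374 and 179 of 1154 in the same order, and in IHG offspring 15 of 2105 and 13 of 1383. Ppy-rich cells were the rarest, with 408 of 9048 Cre-positive and 84 of 5599 Cre-negative cells, and 300 of 11244 IHG offspring and 184 of 14861 control offspring cells. Pyy-rich cells made up 27.8%, 25.6%, 25.3% and 10.3% of Cre-positive, Cre-negative, IHG offspring and control offspring cells. Control offspring thus had the lowest share of cells rich in Sst or Pyy, and for Gcg and Ppy the Cre-negative and control offspring shares were the lowest, with intervals that overlapped.

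**Figure D1:**
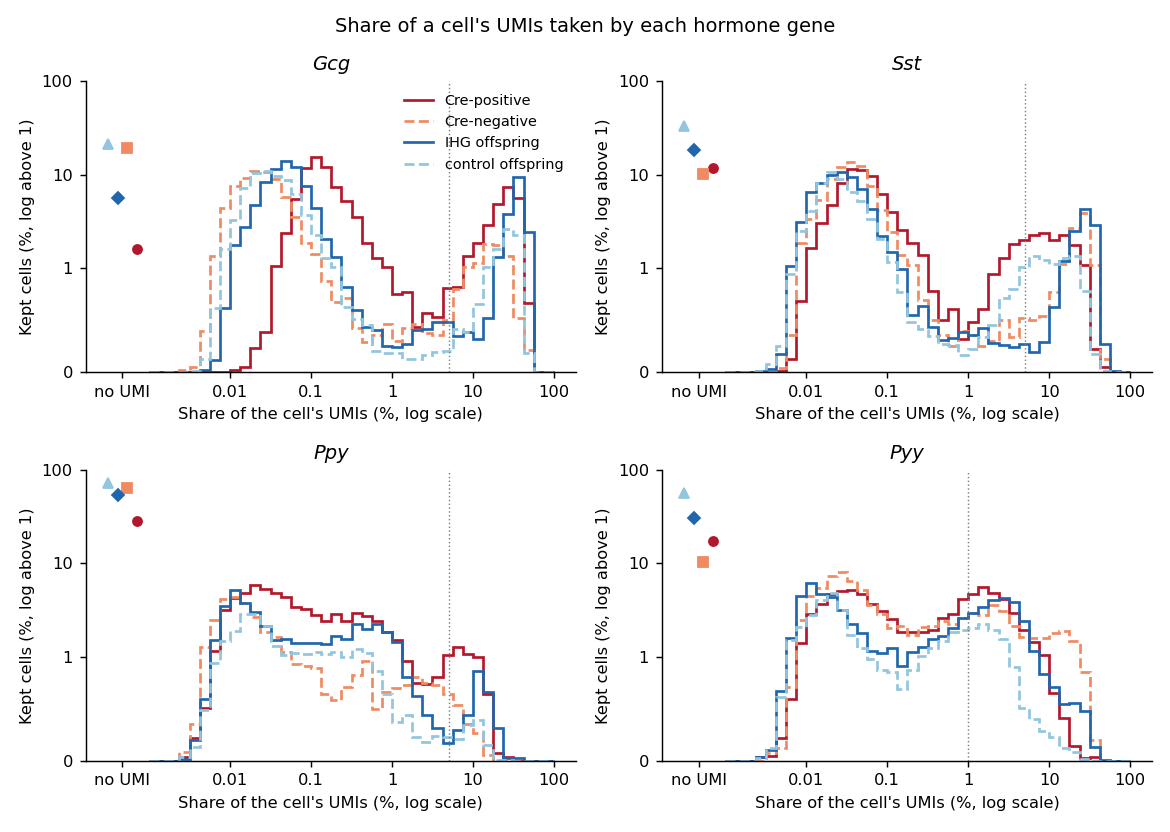
Distribution of the share of a cell's UMIs (%, log scale) taken by each hormone gene over the kept cells (vertical axis, % of kept cells, log above 1) of each library, with cells without a UMI drawn as points on the left and the threshold for a rich cell as a dotted line. For Gcg, most cells of every library lie below 1% and a second body lies above 10%, smaller in Cre-negative (8.86% of cells rich) than in Cre-positive islets (25.8%).

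Gcg was highest in alpha-like and Sst in delta-like cells of every library. Gcg stood at 286443 CPM in Cre-positive and 75566 CPM in Cre-negative alpha-like cells, and at 323087 CPM in IHG offspring and 286093 CPM in control offspring alpha-like cells. In the other named classes Gcg lay between 272 CPM, in Cre-negative beta-like cells, and 24648 CPM, in the IHG offspring endothelial-like cells that include cluster 23. Sst stood at 133615 CPM in Cre-positive and 230140 CPM in Cre-negative delta-like cells, and at 256400 CPM in IHG offspring and 101242 CPM in control offspring delta-like cells. Pyy was second to the main hormone in both classes, with 16853 and 61098 CPM in Cre-positive and Cre-negative alpha-like cells, and 17761 and 19025 CPM in Cre-positive and Cre-negative delta-like cells. Ppy had no class of its own here, since most Ppy-rich cells fell into clusters 17 and 18, and among named classes it was highest in alpha-like cells of Cre-negative (9483 CPM) and IHG offspring islets (12852 CPM) and in delta-like cells of Cre-positive (6616 CPM) and control offspring islets (3348 CPM).

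**Figure D2:**
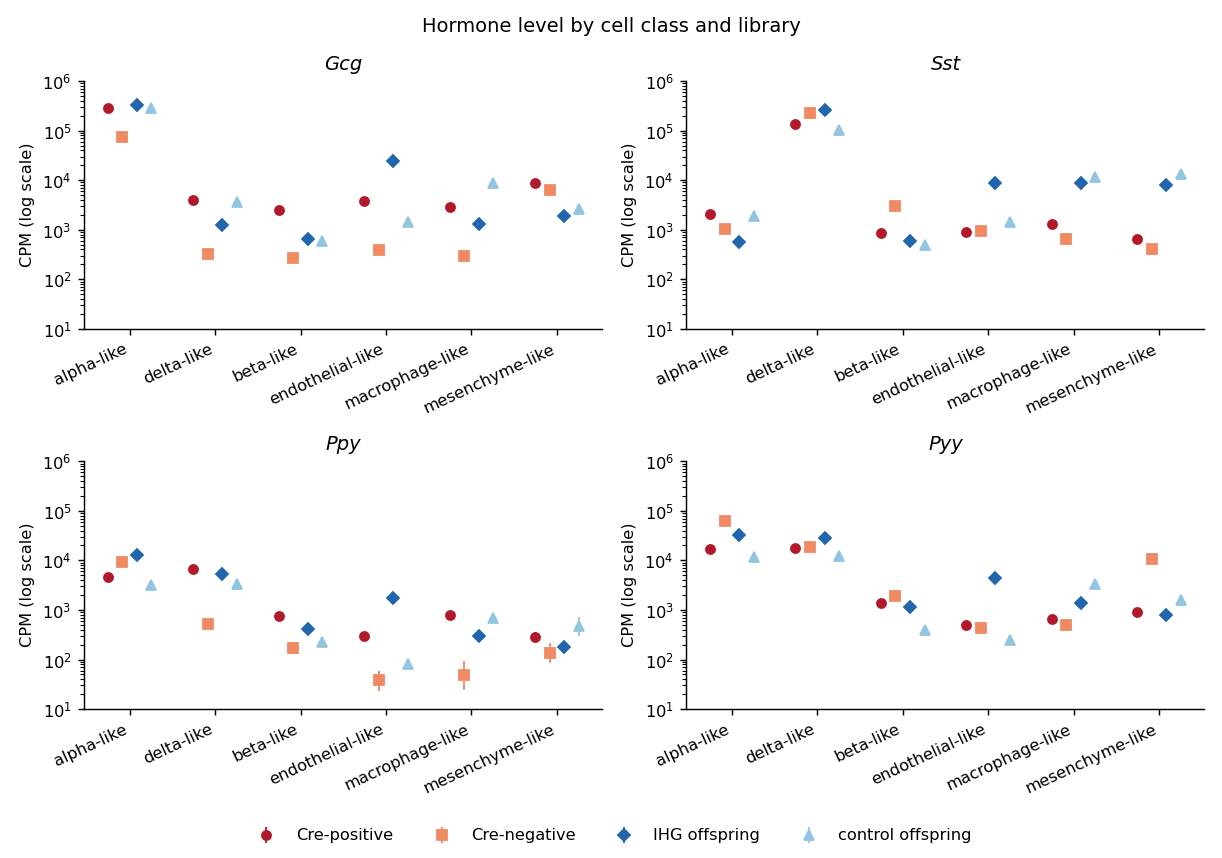
Level of each hormone gene in CPM (log scale) by cell class in the 4 libraries, with exact Poisson intervals of counting error, most of them smaller than the symbols. Gcg peaks in alpha-like cells and Sst in delta-like cells in every library, whereas Pyy is within the same order of magnitude in both of these classes.

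All 4 hormones differed between Cre-positive and Cre-negative alpha-like cells, and Gcg had the largest fold. It reached 286443 CPM in Cre-positive and 75566 CPM in Cre-negative alpha-like cells, a ratio of 3.79 (3.78 to 3.80). Sst was 2.07-fold higher (2106 CPM in Cre-positive, 1018 CPM in Cre-negative cells), Ppy 2.07-fold lower (4574 and 9483 CPM in the same order) and Pyy 3.63-fold lower (16853 and 61098 CPM). All 4 members were past a 1.5-fold difference in one direction or the other, as were 40.6% of 6749 genes, so their count in this class is not a result about these hormones. The median gene had a log2 ratio of -0.45 in this comparison, and scaling by the median of ratios adds 0.41 to every log2 ratio, which gives 2.33 for Gcg against 1.92 here.

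Most cells of the Cre-negative alpha-like class, which includes the Pyy-rich cluster 18, held hardly any Gcg, and those rich in it held less than the Cre-positive ones. The median alpha-like cell gave Gcg 28.7% of its UMIs in Cre-positive and 0.126% in Cre-negative islets, and the upper quartile was 34.1% in Cre-positive and 11.1% in Cre-negative islets. Below the 5% threshold lay 85 of 1560 Cre-positive alpha-like cells (5.45%) and 939 of 1431 Cre-negative ones (65.6%, 63.1 to 68.1). In the offspring libraries it was 199 of 2133 IHG offspring cells (9.33%) and 42 of 995 control offspring cells (4.22%). Of the 939 Cre-negative cells, 50 lay within 2-fold below the threshold, and 114 cells lay within 2-fold above it, so most were far from it. Of the same 939 cells, 668 were rich in Pyy, with a median Pyy share of 9.72% and a median Gcg share of 0.0249%. Their level of Irx1, an alpha-cell factor, was 48.2 CPM, and that of Tspan8, a membrane tetraspanin, was 607 CPM. The other 271 cells were rich in neither Gcg nor Pyy and yet had alpha markers at 216 CPM (Irx1), 158 CPM (Irx2) and 26964 CPM (Ttr, the transthyretin gene). The Gcg-rich alpha-like cells had a median Gcg share of 29.2% in Cre-positive (1475 cells) and 16.3% in Cre-negative islets (492 cells). In the 492 Cre-negative ones Irx1 stood at 190 CPM, Irx2 at 140 CPM and Ttr at 22757 CPM. The alpha markers named here were thus as high or higher in the 271 cells with little Gcg as in the 492 rich in it. Ghrl, the ghrelin gene of epsilon cells, was at 753 CPM in the 271 cells and at 1.45 CPM in the 492. Median depth was 5205 UMIs in the 271 and 6534 UMIs in the 492 cells, and a part of depth in this split was not tested.

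Cluster 18 weighs on these values. Without it, Gcg stood at 287075 CPM in Cre-positive and 110786 CPM in Cre-negative alpha-like cells, a log2 ratio of 1.37. Gcg-rich cells were then 1474 of 1554 Cre-positive alpha-like cells (94.9%) and 480 of 958 Cre-negative ones (50.1%). The median Gcg share of an alpha-like cell without cluster 18 was 28.75% in Cre-positive and 5.23% in Cre-negative islets. Ppy turned round, at 4280 CPM in Cre-positive and 482 CPM in Cre-negative cells (log2 ratio 3.15), and Pyy came out nearly level, at 16592 CPM in Cre-positive and 17448 CPM in Cre-negative cells (log2 ratio -0.07). The lower Ppy and Pyy of Cre-positive alpha-like cells thus rest on which library's polypeptide-rich cells were named alpha-like. The Gcg difference was smaller without them and kept its direction.

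**Figure D3:**
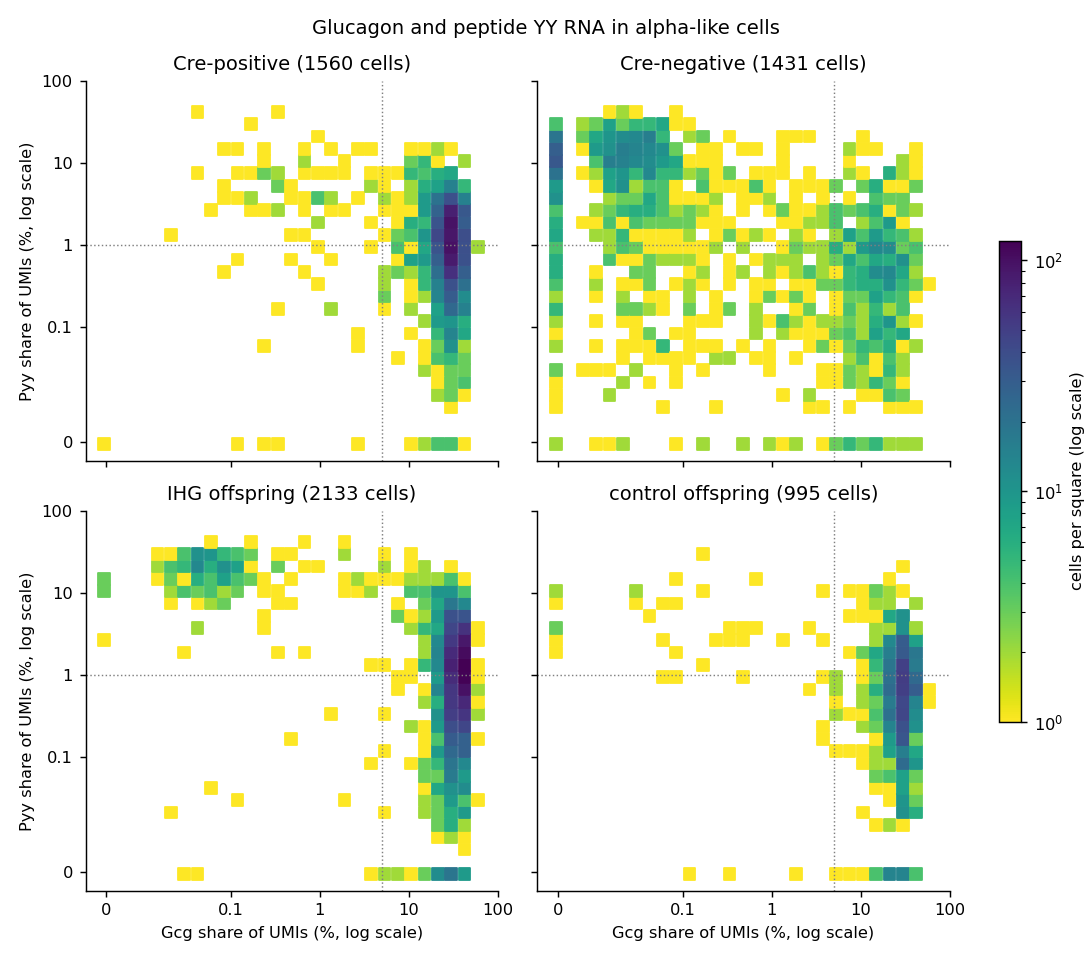
Share of UMIs taken by Gcg (horizontal, %, log scale) and by Pyy (vertical, %, log scale) in alpha-like cells of each library, with cells without a UMI drawn at 0, colour giving the number of cells per square (log scale) and dotted lines the thresholds for rich cells. In Cre-negative islets 668 of 1431 cells lie in the upper left, rich in Pyy with little Gcg, where the Cre-positive panel has 64 of 1560 cells.

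In the offspring libraries Gcg in alpha-like cells differed little. It stood at 323087 CPM in IHG offspring and 286093 CPM in control offspring, 1.13-fold higher (1.127 to 1.132) and short of 1.5-fold, and the median cell gave it 34.3% of its UMIs in IHG offspring and 28.5% in control offspring islets. Within cluster 3, which held 845 IHG offspring and 869 control offspring alpha-like cells, it stood at 327629 and 292222 CPM in that order. The other 3 members were past 1.5-fold, as were 9.64% of 5839 genes. Pyy was 2.83-fold higher (32674 CPM in IHG offspring, 11562 CPM in control offspring cells), Ppy 4.04-fold higher (12852 and 3180 CPM) and Sst 3.25-fold lower (571 and 1853 CPM). Without cluster 18 the log2 ratio of Pyy was 0.68, at 17885 CPM in IHG offspring and 11134 CPM in control offspring cells, and that of Ppy was 0.07, at 2926 and 2794 CPM. Within cluster 3 Ppy was lower in IHG offspring (1620 CPM) than in control offspring cells (2288 CPM). The median alpha-like cell had a Sst share of 0.0216% in IHG offspring and 0.0175% in control offspring islets, which is the opposite order to the sums, and Sst-rich cells among them numbered 5 in IHG offspring and 20 in control offspring islets.

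Sst separated the libraries in delta-like cells in both comparisons. It stood at 133615 CPM in Cre-positive and 230140 CPM in Cre-negative delta-like cells, 1.72-fold lower (1.717 to 1.728), with median shares of 14.5% in Cre-positive and 24.2% in Cre-negative cells. It stood at 256400 CPM in IHG offspring and 101242 CPM in control offspring delta-like cells, 2.53-fold higher (2.525 to 2.540), with median shares of 26.5% and 12.4% in that order. The lower and upper quartiles were 8.88% and 19.9% in Cre-positive and 19.4% and 28.5% in Cre-negative cells, so these ranges just met. They were 20.3% and 32.1% in IHG offspring and 6.56% and 19.25% in control offspring cells, so these ranges did not overlap. Of the 4 members, 3 were past 1.5-fold between Cre-positive and Cre-negative delta-like cells, as were 23.3% of 6916 genes, and all 4 were past it between IHG offspring and control offspring, as were 10.6% of 6416 genes.

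These Sst differences rest in part on which cluster supplied the cells. Within cluster 5, Sst stood at 207417 CPM in 512 IHG offspring cells and 96411 CPM in 1030 control offspring cells (log2 ratio 1.11). Within cluster 8 it stood at 288417 CPM in 821 IHG offspring cells and 241195 CPM in 75 control offspring cells (log2 ratio 0.26). The 17 Cre-positive cells of cluster 8 stood at 219394 CPM, beside 231509 CPM in the 515 Cre-negative cells of the same cluster. In cluster 5, the 781 Cre-positive cells stood at 132423 CPM and the 18 Cre-negative cells at 127539 CPM. Within neither cluster did this pair thus differ by 1.5-fold, though the smaller sides had only 17 and 18 cells. With no doublets removed, when only 19 Cre-positive and 71 control offspring cells were named delta-like, the Cre-positive over Cre-negative log2 ratio turned to 0.07 and that of the offspring was 0.26. Insulin RNA moved opposite to Sst: Ins2 in delta-like cells stood at 34406 CPM in Cre-positive and 12820 CPM in Cre-negative islets, and at 16051 CPM in IHG offspring and 99247 CPM in control offspring islets. The part of this RNA in the Sst values was not tested, beyond that the log2 ratios were -0.89 and 1.42 when levels were scaled without insulin, amylin, the members and mitochondrial genes.

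Delta-like cells also carried Ppy and Pyy, and for Ppy the Cre-negative library stood apart. Ppy stood at 6616 CPM in Cre-positive and 509 CPM in Cre-negative delta-like cells, 12.99-fold higher (12.4 to 13.6), and at 5198 CPM in IHG offspring and 3348 CPM in control offspring cells, 1.55-fold higher. After thinning every cell to 1000 UMIs, a Ppy UMI was seen in 83.5% of delta-like cells from Cre-positive and 21.1% from Cre-negative islets, and in 77.2% of IHG offspring and 72.1% of control offspring ones. Endothelial-like cells, which should lack the gene, gave 18.2% and 5.56% in the first pair and 22.7% and 4.97% in the second by the same count. Median depth before thinning was 4514 UMIs in Cre-positive and 5633 in Cre-negative delta-like cells, and 2050 and 2089 UMIs in the endothelial-like cells of the same pair. Without thinning the Ppy shares of delta-like cells were 95.1% in Cre-positive and 45.0% in Cre-negative islets. The share of delta-like cells with Ppy was thus above that of endothelial-like cells in all libraries. The median Ppy share of a delta-like cell was 0.404% in Cre-positive and 0% in Cre-negative islets, and 0.367% in IHG offspring and 0.203% in control offspring islets. The offspring Ppy ratio turned to a log2 of -0.52 when the top 12% of doublet scores were removed.

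Pyy was a regular part of delta-like cells in every library. Its median share was 1.64% in Cre-positive and 1.84% in Cre-negative delta-like cells, and 2.66% in IHG offspring and 1.35% in control offspring cells. Its level was 1.07-fold lower in Cre-positive than in Cre-negative delta-like cells (17761 and 19025 CPM), short of 1.5-fold, and 2.36-fold higher in IHG offspring than in control offspring cells (28890 and 12267 CPM). Gcg in the median delta-like cell was near its share in beta-like cells, given below, at 0.134% in Cre-positive and 0.0178% in Cre-negative cells, and 0.0467% in IHG offspring and 0.0279% in control offspring cells. Its sums over delta-like cells stood at 3929 CPM in Cre-positive and 323 CPM in Cre-negative cells (12.2-fold higher), and at 1240 CPM in IHG offspring and 3584 CPM in control offspring cells (2.89-fold lower). In the offspring the median share and the sum thus had opposite orders.

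Ppy and Pyy were found in the same cells. Of the Ppy-rich cells, 406 of 408 Cre-positive, 84 of 84 Cre-negative, 300 of 300 IHG offspring and 184 of 184 control offspring cells were also Pyy-rich. The reverse did not hold at the thresholds used, 5% of UMIs for Ppy and 1% for Pyy. Of Pyy-rich cells, 16.1% of Cre-positive and 5.85% of Cre-negative ones were Ppy-rich, and 10.5% of IHG offspring and 12.02% of control offspring ones. In Ppy-rich cells, Pyy UMIs were 0.839 times Ppy UMIs in Cre-positive and 1.86 times in Cre-negative islets, and 1.38 times in IHG offspring and 0.879 times in control offspring islets. Pyy was thus the more abundant RNA of the pair in the Ppy-rich cells of Cre-negative and IHG offspring islets only.

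Clusters 17 and 18 together held the polypeptide-rich cells, 423 Cre-positive (4.67% of kept cells), 474 Cre-negative (8.47%), 300 IHG offspring (2.67%) and 180 control offspring cells (1.21%). Ppy took 7.65% of their UMIs in Cre-positive and 2.73% in Cre-negative islets, and 11.5% in IHG offspring and 8.49% in control offspring islets. Pyy took 6.82% in Cre-positive and 14.7% in Cre-negative islets, and 17.1% in IHG offspring and 7.69% in control offspring islets. Pyy over Ppy was 0.892 in Cre-positive and 5.38 in Cre-negative islets, and 1.48 in IHG offspring and 0.906 in control offspring islets. The Cre-negative cells of these clusters were thus the only ones in which Pyy outweighed Ppy several-fold, and 17.3% of them were Ppy-rich, against 78.5% of the Cre-positive, 87.3% of the IHG offspring and 82.2% of the control offspring cells. Irx1 was low in them in every library, at 10.3 to 15.2 CPM, while Tspan8 was at 319 to 779 CPM. In Cre-negative islets 765 cells were rich in Pyy and in no other member. Of these, 586 were alpha-like, with 368 of them in cluster 18, and 163 were beta-like. The numbers for cells rich in Pyy alone were 219 in Cre-positive, 302 in IHG offspring and 190 in control offspring islets. Of these, 104, 209 and 114 were beta-like and 21, 14 and 10 alpha-like, in that order. The unnamed cluster 17 held 38 of the Cre-positive and 16 of the control offspring ones.

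Cells rich in both Gcg and Sst were frequent in 2 libraries and nearly missing in another. Of the Gcg-rich cells, 361 of 2336 Cre-positive cells (15.45%, 14.01 to 16.98) and 1 of 496 Cre-negative cells (0.202%, 0.00510 to 1.12) were also Sst-rich. In the offspring libraries it was 52 of 2105 IHG offspring cells (2.47%, 1.85 to 3.23) and 184 of 1374 control offspring cells (13.4%, 11.6 to 15.3). These cells were deep: their median UMIs were 1.93 times those of cells rich in Gcg without Sst in Cre-positive, 1.86 times in IHG offspring and 2.15 times in control offspring islets. Cluster 11, with its nearly equal alpha and delta scores, held 326 of the 361 Cre-positive and 156 of the 184 control offspring cells. Leaving out cells above 2 times their library's median UMIs left 163 of 1652 Cre-positive (9.87%) and 1 of 483 Cre-negative Gcg-rich cells (0.207%), and 37 of 2024 IHG offspring (1.83%) and 106 of 1160 control offspring ones (9.14%). With thresholds multiplied by 2, 58 of 2106 Cre-positive, 30 of 2000 IHG offspring and 29 of 1242 control offspring Gcg-rich cells were also Sst-rich, against 361, 52 and 184 cells rich in both at the thresholds used elsewhere. The median doublet score of cells rich in both was 0.0687 in Cre-positive, 0.174 in IHG offspring and 0.0731 in control offspring islets. In cells rich in Gcg without Sst it was 0.0440, 0.0220 and 0.0375 in the same order. Whether 2 cells behind 1 barcode gave this pattern was not tested.

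Pyy was the member most often found beside another hormone, at its lower threshold of 1% of UMIs against 5% for the others. In cells rich in Sst but not in Gcg or Ppy, the 95th percentile of the Pyy share was 4.26% in Cre-positive and 4.06% in Cre-negative islets. It was 5.43% in IHG offspring and 3.86% in control offspring islets. At 5%, few of these cells would thus count as Pyy-rich. Pyy-rich cells made up 56.9% of Cre-positive and 28.8% of Cre-negative Gcg-rich cells, and 49.8% of IHG offspring and 37.3% of control offspring ones. Of Sst-rich cells, 83.8% of Cre-positive and 73.6% of Cre-negative cells were also Pyy-rich, and 92.6% of IHG offspring and 69.8% of control offspring cells. Gcg with Ppy was rare, in 57 Cre-positive, 5 Cre-negative, 28 IHG offspring and 20 control offspring cells. Cells rich in insulin and in Gcg numbered 251 in Cre-positive and 1 in Cre-negative islets, and 99 in IHG offspring and 249 in control offspring islets, with a depth 3.15 times that of cells rich in Gcg without insulin in Cre-positive, 1.27 times in IHG offspring and 2.65 times in control offspring islets. Of the 99 IHG offspring cells, 80 were endothelial-like and 76 lay in cluster 23. Over all pairings, cells rich in more than 1 member were counted with the same lower threshold for Pyy. They made up 64.2% of Cre-positive and 34.4% of Cre-negative cells rich in any member, and 63.7% of IHG offspring and 52.2% of control offspring ones.

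**Figure D4:**
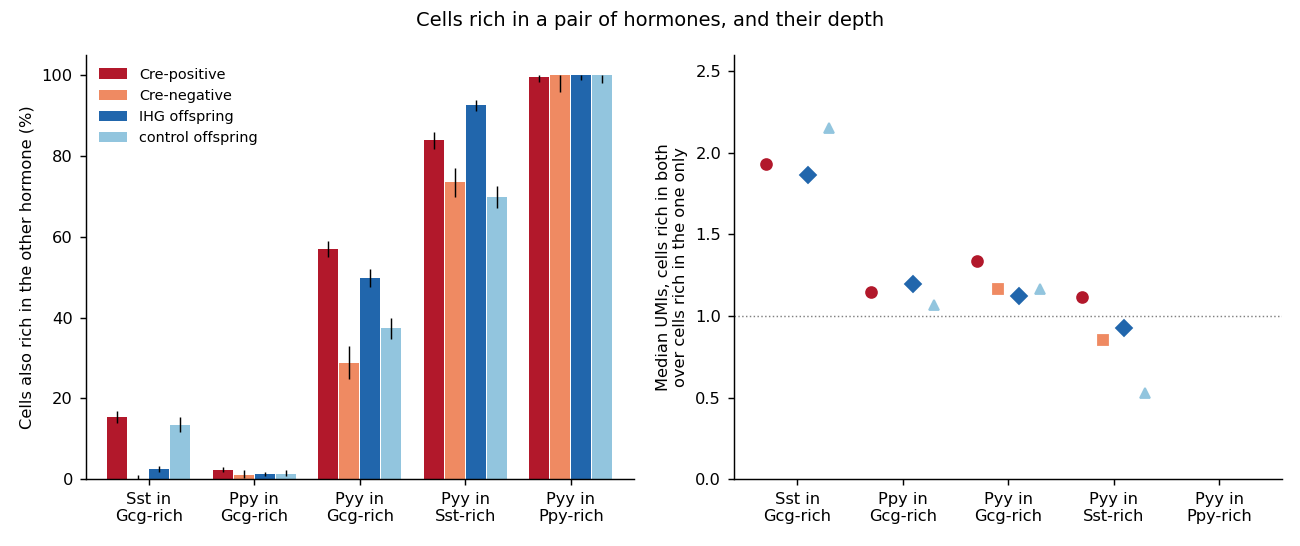
Left, the share (%) of cells rich in a first hormone that are also rich in a second, by library, with exact binomial intervals. Right, the median UMIs of cells rich in both over those of cells rich in the first only, where each set has 10 or more cells. Gcg-rich cells that are also Sst-rich have close to 2 times the depth in the 3 libraries shown, whereas for Pyy in Gcg-rich or Sst-rich cells the depth ratio lies between 0.529 and 1.34.

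In cells that make none of these hormones, the median share of Gcg RNA was highest in the Cre-positive library. Endothelial-like, macrophage-like and mesenchyme-like cells, pooled as non-endocrine, had a median Gcg share of 0.165% in Cre-positive and 0.0168% in Cre-negative islets, and 0.0829% in IHG offspring and 0.0269% in control offspring islets. Beta-like cells had medians of the same order, 0.113%, 0.0183%, 0.0440% and 0.0241% in the same order of libraries. The order of the libraries in these traces was also that of their total Gcg, 7.44%, 1.47%, 5.66% and 1.94% of UMIs in the same order. For Sst the median non-endocrine share was 0.0496% in Cre-positive and 0.0392% in Cre-negative islets, and 0.0394% in IHG offspring and 0% in control offspring islets.

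Endothelial-like cells showed this most plainly for the first pair. Gcg stood at 3751 CPM in Cre-positive and 392 CPM in Cre-negative endothelial-like cells, 9.57-fold higher, and Ppy at 305 and 38.1 CPM, 8.00-fold higher (5.21 to 12.97). Sst (904 and 934 CPM) and Pyy (497 and 439 CPM) differed by less than 1.5-fold. Of 6973 genes, 44.9% were past that fold, 29.9% lower and 1048 genes higher, as both of these members were. Among the 4 hormones' UMIs in Cre-positive endothelial-like cells, 68.7% were Gcg, 16.6% Sst, 5.59% Ppy and 9.11% Pyy, and over the whole library they were 65.6%, 17.6%, 6.48% and 10.3% in the same order. In Cre-negative endothelial-like cells they were 21.7% Gcg, 51.8% Sst, 2.11% Ppy and 24.4% Pyy, and over the whole library 29.5%, 37.2%, 4.01% and 29.2%. The mix in endothelial-like cells was thus close to that of the library in the first case and held more Sst and less Gcg in the second. The Cre-negative mix rests on only 994 UMIs of the 4 hormones in 205 cells. Just 1 of these cells was Sst-rich, with 1361 UMIs and a Sst share of 13.7%. In Cre-negative non-endocrine cells, 1 cell gave 26.6% of the Sst UMIs. The part of single cells in this difference of mix was not tested. Other classes differed: Gcg made up 50.8% in Cre-positive macrophage-like cells and 82.5% in Cre-positive mesenchyme-like cells, and in Cre-negative mesenchyme-like cells Gcg made up 35.5% and Sst 2.30%. Single cells weigh on the mesenchyme-like values. In Cre-positive islets 1 of 119 such cells was Gcg-rich, with 9427 UMIs and a Gcg share of 20.1%, where the class held 2989 UMIs of the 4 hormones. In Cre-negative non-endocrine cells 1 cell gave 71.4% of the Gcg UMIs.

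Sums over non-endocrine cells were set by few cells in some libraries. Gcg summed to 3710 CPM in Cre-positive and 1345 CPM in Cre-negative non-endocrine cells, 2.76-fold higher, with 12.9% of 7558 genes 1.5-fold or more higher, 30.2% lower and 43.0% in either direction, and 1 cell gave 71.4% of the Cre-negative Gcg UMIs. With the 10% of cells of highest share left out, the log2 ratio was 2.73 in place of 1.46. In the offspring libraries Gcg summed to 20584 CPM in IHG offspring and 1674 CPM in control offspring cells, 12.3-fold higher, with 11.4% of 7189 genes 1.5-fold or more higher, 19.1% lower and 30.4% in either direction. Without cluster 23 it was 2981 CPM in IHG offspring and 1683 CPM in control offspring cells, a log2 ratio of 0.82. In macrophage-like cells Gcg was lower in IHG offspring (1285 CPM) than in control offspring (8893 CPM), and in mesenchyme-like cells as well (1926 and 2575 CPM), where control offspring gave 55 and 31 cells. In endothelial-like cells, which include cluster 23, all 4 members were past 1.5-fold between IHG offspring and control offspring, as were 32.5% of 7017 genes, 10.1% higher and 22.4% lower.

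**Figure D5:**
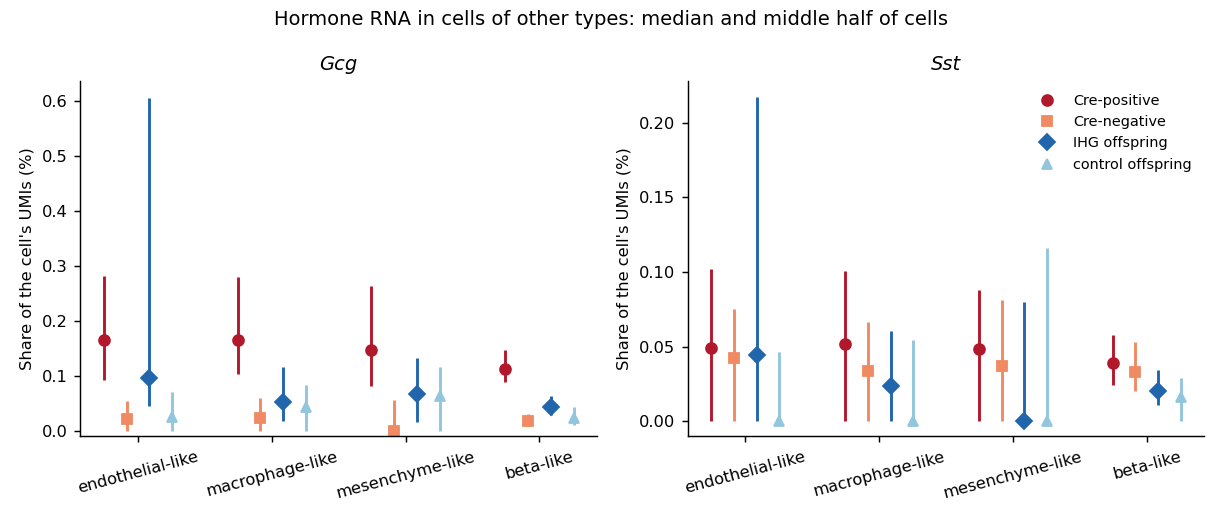
Share of a cell's UMIs (%) taken by Gcg (left) and Sst (right) in endothelial-like, macrophage-like, mesenchyme-like and beta-like cells by library, as the median (symbol) and the range from lower to upper quartile (line). The Cre-positive medians of Gcg, 0.113% to 0.165% in beta-like and endothelial-like cells, lie above those of the other libraries in the same class.

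In beta-like cells the members were at trace level in most cells, and a small number carried a large share. Gcg stood at 2457 CPM in Cre-positive and 272 CPM in Cre-negative beta-like cells, 9.02-fold higher, close to the 9.57-fold of endothelial-like cells. Ppy was 4.38-fold higher (752 CPM in Cre-positive, 172 CPM in Cre-negative cells), and Pyy was 1.39-fold lower (1382 and 1915 CPM). Sst was 3.44-fold lower, at 874 CPM in Cre-positive and 3008 CPM in Cre-negative cells, yet the medians were 0.0390% and 0.0331% in that order. The Sst-rich cells among them were 4 of 2830 in Cre-positive and 81 of 3253 in Cre-negative islets, and the 81 held 63.7% of the Sst UMIs of their class. Without the Sst-rich cells, Sst stood at 797 CPM in Cre-positive and 1113 CPM in Cre-negative beta-like cells. The log2 ratio over the cells named beta-like was 0.58 at clustering resolution 2 and 0.92 with the top 12% of doublet scores removed, against -1.78 here. Fewer Cre-negative cells were named beta-like under these settings, 2144 and 1948 in that order against 3253 here. The Cre-positive ones numbered 2831 and 2670 against 2830 here. Between Cre-positive and Cre-negative beta-like cells 3 of the 4 members were past 1.5-fold, as were 26.3% of 6469 genes.

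Between IHG offspring and control offspring beta-like cells few genes differed, and Pyy and Ppy were among them. Of 5530 genes, 1.21% were past 1.5-fold, 0.597% higher and 0.615% lower, and the 2 members past it were higher. Pyy stood at 1145 CPM in IHG offspring and 387 CPM in control offspring cells, 2.96-fold higher (2.92 to 3.00), and Ppy at 409 and 227 CPM, 1.80-fold higher (1.76 to 1.83). Gcg (664 and 592 CPM) and Sst (584 and 486 CPM) were short of 1.5-fold. Pyy-rich cells were 230 of 6059 IHG offspring (3.80%, 3.33 to 4.31) and 130 of 10789 control offspring beta-like cells (1.21%, 1.01 to 1.43), and they held 82.2% and 62.1% of the Pyy UMIs of the class in that order. Without them Pyy stood at 210 CPM in IHG offspring and 148 CPM in control offspring cells, short of 1.5-fold. The beta-like cluster 10 had Pyy at 0.990% and Ppy at 0.423% of its UMIs over all libraries. It held 810 of the IHG offspring and 332 of the control offspring cells, and its part in the Pyy and Ppy differences was not tested.

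Genes of the hormones' pathways were counted by the same 1.5-fold rule. Scaling bears on such counts: of all genes past the fold, the higher ones made up 11.5% between Cre-positive and Cre-negative alpha-like cells and 59.7% after median-of-ratios scaling. The same shares were 26.4% and 50.8% in beta-like cells of that pair, 17.2% and 30.3% in alpha-like cells of the offspring, and 49.3% and 64.2% in beta-like cells of the offspring. Prohormone processing and granule genes, such as the amidating enzyme gene Pam and the granins, cut and pack these peptides. In Cre-positive over Cre-negative alpha-like cells 6 of the 12 measured were lower and 0 higher, where 36.0% of all genes were lower and 4.67% higher, with a median log2 ratio of -0.58 against -0.45 over all genes. Dpp4, a peptidase that cleaves incretins and Pyy, stood at 37.2 CPM in Cre-positive and 117 CPM in Cre-negative cells, and Pam at 692 and 1349 CPM. After median-of-ratios scaling only Dpp4 of this list stayed past 1.5-fold. In IHG offspring over control offspring alpha-like cells 1 of 12 was higher and 0 lower, where 1.66% of all genes were higher and 7.98% lower: Pcsk1n, an inhibitor of prohormone convertase, stood at 2097 CPM in IHG offspring and 1132 CPM in control offspring cells. Pcsk1n was also higher in IHG offspring delta-like (954 and 449 CPM) and beta-like cells (a ratio of 1.79), where 1 of 13 list genes and 0.597% of all genes were higher in the beta-like comparison.

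In delta-like cells the same list split. Between Cre-positive and Cre-negative cells 1 of 13 was higher and 1 lower, where 9.31% of all genes were higher and 13.9% lower. Pcsk1, the prohormone convertase gene, stood at 45.7 CPM in Cre-positive and 92.4 CPM in Cre-negative cells. Between IHG offspring and control offspring 3 of 13 were higher and 2 lower, where 4.63% of all genes were higher and 5.97% lower. Pcsk1 was lower (42.6 CPM in IHG offspring, 137 CPM in control offspring cells), as was the granin gene Chga (9125 and 16199 CPM), while Chgb, another granin gene (4402 and 2698 CPM), and Pam (892 and 581 CPM) were higher. Granin genes thus went both ways in this comparison. Beta-cell RNA in the same cells was lower in IHG offspring, with Ins2 at 16051 CPM in IHG offspring and 99247 CPM in control offspring, and its part in these values was not tested. In beta-like cells 3 of 13 were lower in the Cre-positive library, Pam, Pcsk1 and Chgb, where 19.4% of all genes were lower and 6.94% higher.

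Receptors for these peptides were mostly too low to count, and 4 or 5 of 14 were measured in a class of the Cre pair. In alpha-like cells 2 of 4 were lower in the Cre-positive library, Sstr3, a somatostatin receptor gene (31.4 CPM in Cre-positive, 55.1 CPM in Cre-negative cells), and Insr, the insulin receptor gene (17.6 and 26.6 CPM), where 36.0% of all genes were lower, and neither stayed past 1.5-fold after median-of-ratios scaling. In beta-like cells 4 of 5 were lower, led by Glp1r, the receptor gene for glucagon-like peptide 1 (289 CPM in Cre-positive, 588 CPM in Cre-negative cells), where 19.4% of all genes were lower, and the one that stayed past 1.5-fold after that scaling. Gcgr, the glucagon receptor gene, was among them, at 18.9 CPM in Cre-positive and 29.5 CPM in Cre-negative cells. In delta-like cells Gcgr stood at 7.38 CPM in Cre-positive and 21.5 CPM in Cre-negative cells. Between IHG offspring and control offspring, Glp1r was lower in delta-like (92.1 and 286 CPM) and alpha-like cells (6.93 and 38.1 CPM), and Gipr, the receptor gene for the incretin GIP, in delta-like cells (46.2 and 102 CPM). No receptor of the 3 measured in beta-like cells was past 1.5-fold in that comparison. In the classes where Glp1r and Gipr were lower, the beta-cell genes were lower too: Ins2 in alpha-like cells stood at 2154 CPM in IHG offspring and 10310 CPM in control offspring, and the part of beta-cell RNA in these values was not tested.

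Regulators of these hormones differed in few cases. In Cre-positive over Cre-negative alpha-like cells 3 of 15 were lower and 0 higher, where 36.0% of all genes were lower and 4.67% higher, with a list median of -0.28 against -0.45 over all genes. Pou3f4, a factor of alpha cells, stood at 21.8 CPM in Cre-positive and 62.4 CPM in Cre-negative cells, and Isl1, a factor of all islet hormone cells, at 285 and 483 CPM. After median-of-ratios scaling 1 of 15 was lower (Pou3f4) and 3 were higher (Irx1, Irx2 and Insm1). Between IHG offspring and control offspring alpha-like cells 0 of 14 were past 1.5-fold, where 9.64% of all genes were. In delta-like cells Nkx2-2, a factor of several islet hormone cells, was higher in Cre-positive (237 CPM) than in Cre-negative cells (99.8 CPM), and Neurod1, another such factor, was lower in IHG offspring (208 CPM) than in control offspring cells (331 CPM). In Cre-positive over Cre-negative beta-like cells 3 of 12 were lower and 0 higher, where 19.4% of all genes were lower and 6.94% higher. Among the 3 was Rfx6, a factor of islet endocrine cells, at 57.3 CPM in Cre-positive and 95.9 CPM in Cre-negative islets. After median-of-ratios scaling Rfx6 was no longer past 1.5-fold, and 1 of the 12 was still lower.

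Among other islet peptides, 4 of 14 were measured in each of the alpha-like, delta-like and beta-like classes. Ghrl in alpha-like cells stood at 2.30 CPM in Cre-positive and 120 CPM in Cre-negative islets. These values leave out cluster 17, which stayed unnamed and held 417 Cre-positive cells and 1 Cre-negative cell. Ghrl led the genes of that cluster by level over the median cluster. It was also among the top genes of the alpha-like cluster 13, with 8 Cre-positive and 838 Cre-negative cells. The alpha-like values thus do not give the Ghrl of a whole library. Ins1, Ins2 and Iapp were higher in Cre-positive alpha-like cells, and all were lower in IHG offspring than in control offspring alpha-like and delta-like cells. Ucn3, which encodes urocortin 3, a peptide of beta cells, stood at 530 CPM in Cre-positive and 160 CPM in Cre-negative beta-like cells, 3.31-fold higher (3.21 to 3.41).

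The genes whose levels went most closely with each member were described over 63 profiles of library by cluster, which share libraries and depth, among 12145 genes. For Gcg they included the alpha-cell factor Irx1 (Pearson r of 0.93), Edn3, which encodes an endothelin (0.91), Irx2 (0.86) and the vasopressin receptor gene Avpr1b (0.86). For Sst they were Cela1, an elastase gene (0.90), Ptprz1 (0.88), Dpp6 (0.86), Bmp3 (0.84) and Sox9 (0.84). Sox9 is best known as a duct factor, and Cela1 is also known from exocrine tissue. For Ppy they were Gpx3, a secreted glutathione peroxidase gene (0.86), Folr1 (0.82), Tspan8 (0.79), Kcnk3 (0.79) and Fev (0.77). For Pyy they were Gpx3 (0.94), Smarca1 (0.90), Fev, a factor of serotonin neurons and islet progenitors (0.90), Calb1 (0.90) and Ocrl (0.90). Gpx3 and Fev stood on the lists of both Ppy and Pyy, the lists of Gcg and Sst shared no gene with any other, and the correlation of the members themselves was 0.92 for Ppy with Pyy and 0.19 for Gcg with Sst.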

How the data were processed

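Islets were freed by collagenase, picked by hand, cultured and dissociated with trypsin before single-cell capture in microwells, per the labels' protocols. The 4 deposited matrices hold UMI counts of 32285 genes, not normalized, and 0 columns were without a sample. Per the submitters' processing notes, which name no version or role, Cell Ranger, Seurat and mm10 were used. The annotation is not stated in them.

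A barcode was kept if it had at least 500 genes and no more than 20% mitochondrial UMIs. A doublet caller (Scrublet in scanpy 1.11.5) marked 0 to 542 cells of a library at its own threshold. In its place the 6% of cells with the highest score were left out of every library, leaving 48078663 to 99122225 UMIs per library. The libraries were clustered jointly, with no batch correction and without the members (2000 variable genes, 30 principal components, 15 neighbours, Leiden resolution 1; igraph 0.11.9, leidenalg 0.10.2). A cluster was named from markers that hold no member, so no PP class exists. The name went to the list with the highest mean log2 level over the median cluster. A cluster stayed unnamed if that score was under 1 or led the next by less than 1, if fewer than 3 markers were detected, or if its top 10 genes held more markers of another type.

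Levels are UMIs of a class scaled to CPM. A gene was measured at 20 CPM in either library, and differences were counted past 1.5-fold. Ratios carry exact conditional binomial intervals, shares exact binomial ones (Clopper-Pearson) and levels exact Poisson ones (scipy 1.17.1). Shares of cells with a UMI were also given after thinning to 1000 UMIs. No p-value was made. In simulated counts of alpha-like cells with 200 changed genes, the rule found 200 of 200 in each pair. These were among 6720 genes for the Cre pair and 5732 for the offspring. How the rule fares under the spread between mice or libraries was not tested.

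The members, lists and rules were chosen with earlier results of these data known. Named genes are the 4 members, up to 4 genes past the fold per list and comparison, and the 5 most alike by Pearson's r of log2(CPM + 5) over library-by-cluster profiles of 50 or more cells. Genes of split groups of alpha-like cells, and those of clusters 17 and 18, were chosen after their values were seen. Promoter sequences are from RefSeq tables, for 4 of 4 members. Alternatives to each choice are given in the closing section. Some genes of the lists and rules are not reported here.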

Additional observations from a re-analysis of the deposited data

Results flagged for a closer look

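The direction of a hormone's difference between the libraries of a pair was not the same in all endocrine classes, and these differences between classes were not tested, since each group has 1 library. Ppy, as a log2 ratio of Cre-positive over Cre-negative islets, was -1.05 in alpha-like, 3.70 in delta-like and 2.13 in beta-like cells. The Ppy value of alpha-like cells turns positive without cluster 18. Sst in the same pair was 1.05 in alpha-like, -0.78 in delta-like and -1.78 in beta-like cells. The delta-like value turns to 0.07 with no doublets removed, and the beta-like value to 0.92 with the top 12% of doublet scores removed, 0.58 at clustering resolution 2 and 0.23 by the median share per cell. Between IHG offspring and control offspring, Sst was -1.70 in alpha-like and 1.34 in delta-like cells. The alpha-like value turns to 0.31 by the median share per cell, and 5 IHG offspring and 20 control offspring alpha-like cells were Sst-rich.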

How the results depend on the processing

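Each library is the one sample of its group, so no library could be left out. No paired analysis was possible because each group has 1 library and the labels carry no replicate numbers. The settings within clusters, without cluster 18 or 23, and with Pyy not counted among other hormones were chosen after seeing the data. Where a value below moved or turned, the cause was not tested. Depth limits low genes most, and intervals leave out the spread between mice, which cannot be had here.

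For Cre-positive over Cre-negative cells, the log2 ratio of Gcg in alpha-like cells, 1.92 as reported, was 1.95 with the members in the clustering, 1.94 at resolution 2, 2.22 when scaled without insulin, amylin, the members and mitochondrial genes, 2.33 by median of ratios, 2.09 thinned to 1000 UMIs and 1.91 less the endothelial-like level. It was 1.26 without cells rich in another hormone, 1.87 if Pyy was not counted there, 7.84 by the median share per cell, 0.49 within cluster 20 and 1.37 without cluster 18. Ppy in these cells turned to 3.47 without cells rich in another hormone, 3.02 within cluster 20 and 3.15 without cluster 18, and Pyy to 0.06 within cluster 20. Sst in delta-like cells, -0.78 as reported, turned to 0.07 with no doublets removed. Otherwise it was -0.86 with the top 12% of doublet scores removed, -0.50 with the members in the clustering, -0.59 at resolution 2, -0.89 without the abundant genes in the scaling, -0.65 by median of ratios, -0.88 without cells rich in another hormone (-0.60 if Pyy was not counted), -0.67 thinned and -0.74 by the median share. Sst in beta-like cells turned to 0.92 with the top 12% of scores removed, 0.58 at resolution 2 and 0.23 by the median share.

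For IHG offspring over control offspring, Gcg in alpha-like cells, 0.18 as reported, stayed below 1.5-fold: 0.20 with the top 12% of scores removed, 0.15 with the members in the clustering, 0.16 at resolution 2, 0.30 without the abundant genes in the scaling, 0.24 by median of ratios, 0.21 without cells rich in another hormone (0.23 if Pyy was not counted), 0.16 thinned, 0.07 less the endothelial-like level, 0.27 by the median share, 0.16 within cluster 3, 0.54 within cluster 20 and 0.28 without cluster 18. Sst in these cells turned to 0.31 by the median share and Ppy to -0.50 within cluster 3. Sst in delta-like cells, 1.34 as reported, kept its direction and was 0.26 with no doublets removed, 1.37 with the top 12% of scores removed, 0.60 with the members in the clustering, 0.59 at resolution 2, 1.42 without the abundant genes in the scaling, 1.33 by median of ratios, 0.68 without cells rich in another hormone (0.60 if Pyy was not counted), 0.94 thinned, 1.31 less the endothelial-like level, 1.10 by the median share, 1.11 within cluster 5 and 0.26 within cluster 8. Gcg in delta-like cells turned to 0.75 by the median share and 0.97 within cluster 8, and Ppy to -0.52 with the top 12% of scores removed and -0.51 without cells rich in another hormone.

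In non-endocrine cells, Cre-positive over Cre-negative, Gcg was 1.46 as reported, 2.79 with no doublets removed, 2.74 with the top 12% of scores removed, 3.29 by the median share, 2.73 without the 10% of cells of highest share, 3.26 in endothelial-like, 3.25 in macrophage-like and 0.49 in mesenchyme-like cells. Pyy, -1.96 over all of them, turned to 0.26 with the top 12% of scores removed, 0.53 by the median share, 0.10 without the 10% of highest share, 0.18 in endothelial-like and 0.39 in macrophage-like cells. For the offspring, Gcg was 3.62 over all of them, 2.03 with no doublets removed, 0.36 with the top 12% of scores removed, 0.80 with the members in the clustering, 1.63 by the median share, 3.97 without the 10% of highest share, 4.12 in endothelial-like cells and 0.82 without cluster 23. It turned to -2.79 in macrophage-like and -0.42 in mesenchyme-like cells, as did Sst (-0.40 and -0.78), Ppy (-1.20 and -1.44) and Pyy (-1.23 and -0.99).

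The share of Gcg-rich cells also rich in Sst, Cre-positive minus Cre-negative, was 15.3 points as reported, 26.2 with thresholds divided by 2, 30.4 divided by 5, 2.75 multiplied by 2 and 9.66 without cells over 2 times the median UMIs. For IHG offspring minus control offspring it was -10.9 as reported and -18.2, -18.2, -0.83 and -7.31 under the same settings. With thresholds multiplied by 2, Cre-positive minus Cre-negative turned to -2.30 points for Sst-rich cells, -2.84 for Pyy-rich cells and -0.41 for Sst-rich cells also rich in Pyy.

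The number of genes past 1.5-fold in alpha-like cells of the Cre pair, 2743 as reported, was 6137 with a level minimum of 1 CPM and 1421 by median of ratios, and in those of the offspring 2363 at 1 CPM against 563. In delta-like cells it was 3846 with no doublets removed and 4578 at 1 CPM against 1608 for the Cre pair, and 2331 and 2714 against 680 for the offspring. Of the values outside the main results, 131 lay within the range of the value reported and 271 outside it. That range was the counting error for levels and shares and a 1.5-fold band for gene counts. A turn was counted apart only where the ratio reported was past 1.5-fold or the difference in shares was clear of counting error. The 271 can thus include small values that changed direction.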
